A study of Camelus dromedarius with 10 samples.

Results

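The genes described here act in the cyclic AMP (cAMP) pathway, and their RNA was measured in the rostral supraoptic nucleus (SON) of the dromedary camel. The 7 genes are the transcription factors CREM, CREB1 and ATF1, the coactivator CITED1, the protein kinase A (PKA) inhibitor ARHGAP36, and the PKA catalytic subunits PRKACA and PRKACB. They were found by matching each Ensembl gene ID of the count table to these symbols in the name tables of the study, which gave 1 ID for each gene and 7 of the 22444 IDs in all. The set was put together with the effect of water deprivation in these same libraries already known, and CREM, CITED1 and ARHGAP36 were picked on the size of that effect. The differences of the 7 genes between groups are therefore given as a description, with no test.

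Libraries came from male dromedaries aged 4 to 5 years that were kept on a ranch. The 5 control camels had food and water at will, and the 5 water-deprived (WD) camels had food but no water for 20 days. Tissue was punched from the SON on 1 side of the brain, so every library is a mixture of magnocellular neurones and the cells around them. In such a mixture, fewer cells of a type and less RNA per cell cannot be told apart. Replicate numbers in the labels name the camels (CON2 to CON5 and CON13 for control, WD6 to WD9 and WD15 for WD).

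In a cell that receives a signal through a Gs-coupled receptor, adenylyl cyclases make cAMP, which releases the catalytic subunits of PKA from their regulatory subunits. PKA then phosphorylates CREB1, ATF1 and CREM, factors that bind cAMP response elements (CRE), and phosphorylated CREB1 recruits the coactivators CBP and p300. The CREM gene also has an internal promoter that makes short repressors called ICER, and this promoter is itself switched on by cAMP. In the SON, the pathway is known for its part in the response of vasopressin neurones to osmotic stimulation.

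Total counts ran from 1665098 to 7518432 read pairs in control libraries and from 4227685 to 8126641 in WD libraries. Between 27.7% and 76.1% of them fell on 5 gene IDs. Outside these IDs, CON13 held 397495 read pairs and WD6 1106575, the fewest of their groups, so genes with few counts were least precise there. Levels are given as CPM, read pairs scaled to the TMM-normalized size of the library. Of the 7 markers of hypothalamic neuroendocrine neurones, SIM1, OTP, CHGB and SCG3 were paired with an ID, and all were measured, with a summed level of 264 to 425 CPM in control and 327 to 656 CPM in WD. Of the 4, SCG3 passed the threshold (49.0 to 140 CPM in control, 161 to 377 CPM in WD; edgeR adjusted p = 0.0349), while the median log2 fold change of the 4 genes was 0.03 and SIM1 and OTP were at -0.04 and -0.58. The 4 markers of the neighbouring suprachiasmatic nucleus (VIP, VIPR2, SIX6 and LHX1) summed to at most 8.37 CPM in any library.

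CREM was higher in every WD library than in any control library. Its level was 8.11, 6.39, 5.85, 6.73 and 1.20 CPM in CON2, CON3, CON4, CON5 and CON13. In WD6, WD7, WD8, WD9 and WD15 it was 24.7, 22.4, 15.1, 25.7 and 19.4 CPM. The 4 deeper controls lay close together, CON13 stood below them, and the lowest WD library, WD8, was still above the highest control. Control libraries had a mean of 5.66 CPM ± 2.63 and WD libraries one of 21.4 CPM ± 4.31 (SD, n = 5 each). The fitted log2 fold change was 1.77 with a standard error (SE) of 0.27, a 3.41-fold difference, and it ranked 16th from the top among the 14432 genes tested.

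The control spread of CREM came mainly from 1 library. In CON13 the level of 1.20 CPM rested on 1 read pair, for which the exact 95% Poisson interval is 0.0303 to 6.66 CPM and reaches past the values of CON3 and CON4 (such intervals cover counting error only). Without CON13 the log2 fold change of CREM was 1.66.

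The RefSeq gene table for the dromedary (assembly mCamDro1.pat) lists 19 transcripts of CREM, against 9 of CREB1 and 7 of ATF1. The deposited counts hold 1 value for each gene, so ICER and the longer forms of CREM were counted together and cannot be told apart. The study designed a pair of quantitative PCR primers for CREM, which are the member sequences at hand and are shown because they set which part of the transcripts that assay reads. By this assay the study reported CREM as higher in WD than in control, in both the rostral and the caudal SON. The primer table names 25 transcripts for the pair.
CREM forward: cctacttaccagatccgggc
CREM reverse: atcagcctcagctctcgttt
Both are 20 bases long and are written 5′ to 3′.

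**Figure D1:**
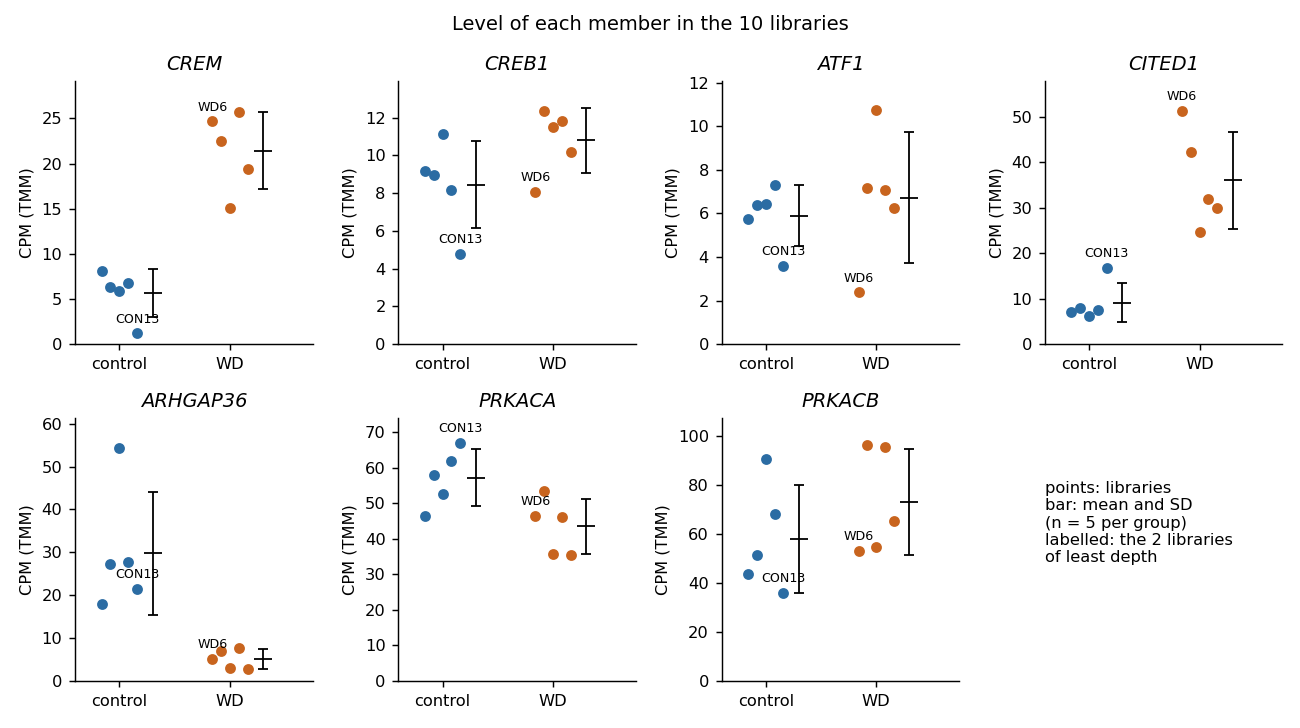
Level of each of the 7 genes in CPM after TMM normalization (linear axis from 0) in 5 control and 5 WD libraries, with 1 point for each library and a bar for the mean and SD. CREM and CITED1 were higher and ARHGAP36 was lower in every WD library than in any control library, while the groups overlapped for CREB1, ATF1, PRKACA and PRKACB.

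CREB1, the founding member of the family, showed groups that overlapped. In control libraries it was measured at 9.18 (CON2), 8.99 (CON3), 11.1 (CON4), 8.20 (CON5) and 4.78 CPM (CON13). In WD libraries it was measured at 8.07 (WD6), 12.4 (WD7), 11.5 (WD8), 11.8 (WD9) and 10.2 CPM (WD15). CON13 and WD6, the least deep libraries, were the lowest of their groups, and 3 of the 5 WD libraries were above every control. The log2 fold change was 0.30 (SE 0.24).

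ATF1, the closest relative of CREB1, also showed overlapping groups. The control values were 5.76, 6.39, 6.43, 7.32 and 3.59 CPM in CON2, CON3, CON4, CON5 and CON13, and the WD values were 2.37, 7.14, 10.8, 7.09 and 6.25 CPM in WD6, WD7, WD8, WD9 and WD15. WD libraries held both the lowest and the highest value of ATF1, in WD6 and WD8. The WD6 value rested on 5 read pairs, with an exact 95% Poisson interval of 0.770 to 5.54 CPM. The log2 fold change was 0.17 (SE 0.33), and it was -0.07 without WD8.

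Because the 3 factors bind the same element, their counts were also set against each other within each library. Library scaling drops out of such a ratio, but the counting error of a library with few read pairs does not. CREM made up 35.2% of the counts of the trio in CON2, 29.3% in CON3, 25.0% in CON4, 30.3% in CON5 and 12.5% in CON13. In WD6, WD7, WD8, WD9 and WD15 its share was 70.3%, 53.5%, 40.3%, 57.6% and 54.1%. In CON13, with the lowest share, CREM, CREB1 and ATF1 had 1, 4 and 3 read pairs. In WD6, with the highest share, they had 52, 17 and 5. The groups did not overlap, and the mean share was 26.5% ± 8.60 in control against 55.1% ± 10.7 in WD (SD, n = 5 each). The mean share of CREB1 was 43.1% ± 5.49 in control against 27.7% ± 3.06 in WD (SD, n = 5 each), also without overlap. The shares of the trio add up to the whole, so the share of CREB1 moves with that of CREM, and the level of CREB1 itself overlapped between groups. The share of ATF1 overlapped between groups. These are shares of read pairs and not of molecules, since transcript lengths were not used.

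Per CREB1 read pair there were 0.638 ± 0.256 read pairs of CREM in control against 2.05 ± 0.645 in WD (SD, n = 5 each). No control library reached 1 (highest 0.884, in CON2), and no WD library fell under 1.31 (WD8). The lowest control value, 0.25 in CON13, rested on 1 read pair of CREM and 4 of CREB1. ATF1 per CREB1 read pair was 0.712 ± 0.122 in control and 0.603 ± 0.227 in WD (SD, n = 5 each), and the groups overlapped.

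**Figure D2:**
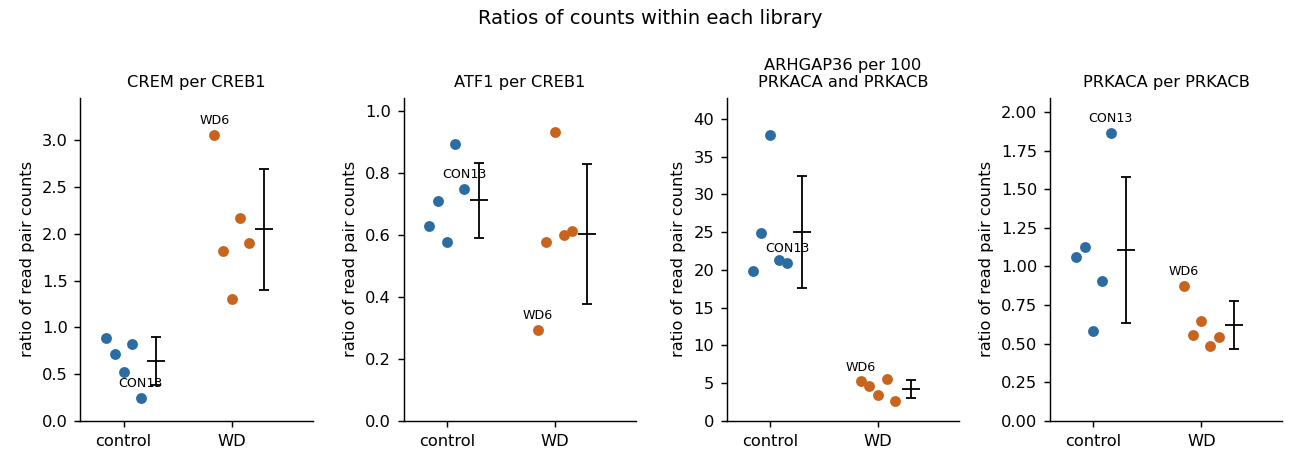
Ratios of read pair counts within each library (no unit, linear axes from 0) for 5 control and 5 WD libraries, with 1 point for each library and a bar for the mean and SD. CREM per CREB1 and ARHGAP36 per 100 PKA catalytic subunit counts separated the groups, and ATF1 per CREB1 and PRKACA per PRKACB did not.

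CITED1 encodes a transcriptional coactivator that does not bind DNA itself and works through CBP and p300, the coactivators that CREB1 also uses. Its level was 7.04, 8.04, 6.20 and 7.61 CPM in CON2, CON3, CON4 and CON5 and 16.7 CPM in CON13. It was 51.3, 42.3, 24.6, 32.0 and 30.0 CPM in WD6, WD7, WD8, WD9 and WD15. Every WD library was above every control, and the gap was smallest between CON13 and WD8. Control libraries averaged 9.13 CPM ± 4.31 and WD libraries 36.0 CPM ± 10.7 (SD, n = 5 each), and the log2 fold change of 2.15 (SE 0.27, 4.43-fold) ranked 6th from the top of all genes tested.

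The CON13 value of CITED1 rested on 14 read pairs. Its exact 95% Poisson interval, 9.15 to 28.1 CPM, lay above the 4 other controls. Without CON13 the log2 fold change was 2.30, the highest value with any 1 library left out. CON13 was thus the lowest control for CREM and the highest for CITED1.

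CITED2, a relative of CITED1, has a symbol here only through the shortened name table that is ordered by p, which favours genes of low p. It was also higher in each WD library than in any control library. Its level was 4.98 CPM ± 1.12 in control and 10.7 CPM ± 3.23 in WD (SD, n = 5 each), with a log2 fold change of 1.13 (SE 0.29) that did not pass the threshold (edgeR quasi-likelihood F test, Benjamini-Hochberg adjusted p = 0.138 over 14432 genes) but did in DESeq2's Wald test. CITED1 per 100 read pairs of CITED2 was 184 ± 67.1 in control against 352 ± 108 in WD (SD, n = 5 each), and this ratio overlapped between groups.

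ARHGAP36 encodes a protein known to bind the catalytic subunits of PKA, block them and send them for degradation, and it was first described as an activator of Hedgehog signalling. Its level was 17.9, 27.2, 54.3, 27.8 and 21.5 CPM in CON2, CON3, CON4, CON5 and CON13. It was 5.22, 6.89, 3.07, 7.78 and 2.71 CPM in WD6, WD7, WD8, WD9 and WD15. Every WD library was below every control, and CON4 was far above the other controls. Control libraries averaged 29.7 CPM ± 14.3 and WD libraries 5.13 CPM ± 2.25 (SD, n = 5 each). The log2 fold change was -2.52 (SE 0.34), a 5.76-fold lower level in WD, and the third lowest of all genes tested.

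Leaving out CON4 gave the smallest difference of ARHGAP36, a log2 fold change of -2.19. The counts behind the WD values were small in WD6 (11) and WD15 (13), where the exact 95% Poisson intervals were 2.61 to 9.34 CPM and 1.44 to 4.63 CPM. Both intervals end below the lowest control value.

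PRKACA, the catalytic subunit that most tissues use, was somewhat lower in WD, with groups that overlapped. Its level was 46.3, 58.0, 52.7, 61.8 and 67.0 CPM in CON2, CON3, CON4, CON5 and CON13, and 46.5, 53.4, 35.6, 46.1 and 35.4 CPM in WD6, WD7, WD8, WD9 and WD15. The 3 lowest values were those of WD8, WD9 and WD15, and CON2 and CON4 lay inside the WD range. The log2 fold change was -0.38 (SE 0.18).

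PRKACB, the catalytic subunit known for its high level in brain, varied more from library to library. Its level was 43.8, 51.3, 90.8, 68.4 and 35.9 CPM in CON2, CON3, CON4, CON5 and CON13. In WD6, WD7, WD8, WD9 and WD15 it was 53.2, 96.5, 54.8, 95.7 and 65.4 CPM. The least deep library of each group was again the lowest, the groups overlapped, and the log2 fold change was 0.31 (SE 0.25). It moved between 0.17 without WD7 and 0.51 without CON4, and it was 0.22 with the group of libraries by depth as a covariate.

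The balance of the catalytic subunits was 1.11 ± 0.474 PRKACA read pairs per PRKACB read pair in control and 0.620 ± 0.154 in WD (SD, n = 5 each). CON4, at 0.580, lay inside the WD range of 0.482 to 0.875, so the groups overlapped. The least deep library had the highest ratio of each group, 1.87 in CON13 and 0.875 in WD6. The CON13 ratio rested on 56 read pairs of PRKACA and 30 of PRKACB. Controls other than CON13 ran from 0.580 to 1.13. Catalytic subunits per read pair of the 4 regulatory subunits were 0.515 ± 0.0307 in control and 0.537 ± 0.0789 in WD (SD, n = 5 each), again with overlap.

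Set against its targets within each library, ARHGAP36 separated the groups. Per 100 read pairs of PRKACA and PRKACB there were 19.9, 24.9, 37.8, 21.4 and 20.9 read pairs of ARHGAP36 in CON2, CON3, CON4, CON5 and CON13. In WD6, WD7, WD8, WD9 and WD15 there were 5.24, 4.59, 3.40, 5.48 and 2.69. The lowest control, CON2, was well above the highest WD library, WD9. The mean ratio was 25.0 ± 7.43 in control and 4.28 ± 1.20 in WD (SD, n = 5 each), 5.84 times as high in control.

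All 7 genes passed the filter on low counts. Of them, CREM, CITED1 and ARHGAP36 passed an adjusted p of 0.05, where 0.499% of the 14432 genes tested did, and the same 3 genes had groups that did not overlap, as did 2.62% of all genes tested. With total counts alone as library sizes CREM did not pass. Both counts are fixed by how the set was chosen, and nothing is read from them. The median log2 fold change of all genes was 0.02.

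How far the fitted values moved with the processing is given as a description too, since each of these fits uses the libraries on which the genes were picked. In the 10 fits that lack 1 library, the log2 fold change ran from 1.66 to 1.87 for CREM, from 2.01 to 2.30 for CITED1 and from -2.77 to -2.19 for ARHGAP36. Without both CON13 and WD6 it was 1.60 for CREM, 2.15 for CITED1 and -2.61 for ARHGAP36. With total counts alone as library sizes it was 1.88 for CREM, 2.22 for CITED1 and -2.38 for ARHGAP36, the setting in which CREM missed the threshold. A filter of at least 10 counts in every library removes CREM, CREB1 and ATF1. In the fits that lack 1 library, CREB1 ran from 0.22 to 0.40, PRKACA from -0.49 to -0.31 and ATF1 from -0.07 (without WD8) to 0.33, and with total counts as library sizes CREB1 was at 0.46 and PRKACA at -0.20. The log2 fold changes of CREB1, PRKACA and PRKACB kept their signs in each of these fits, and that of ATF1 changed sign once.

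**Figure D3:**
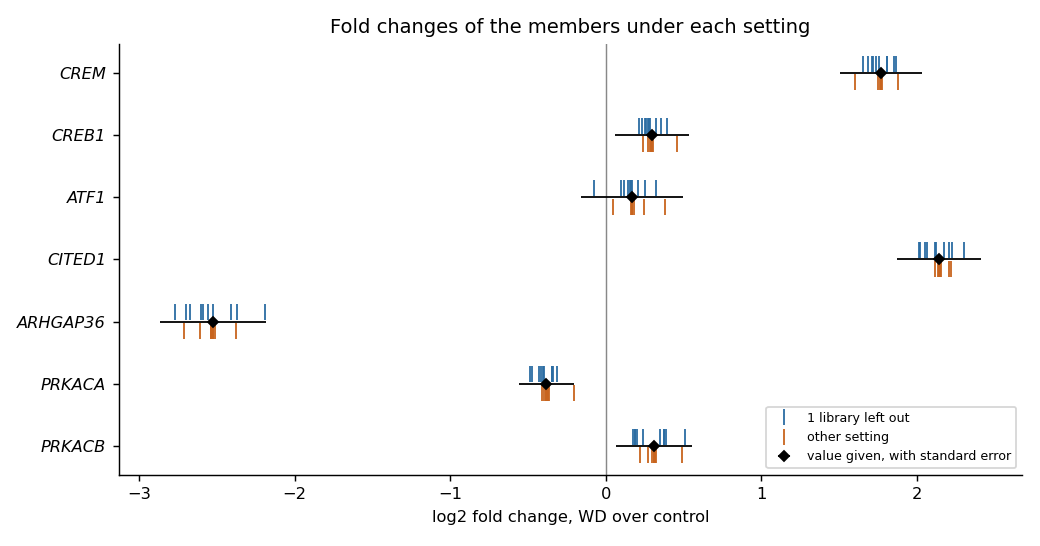
Log2 fold change of WD over control for each of the 7 genes (horizontal axis, log2 units). Diamonds with bars give the reported value and its SE, blue ticks above them the 10 fits without 1 library, and orange ticks below them the other settings. CITED1 stayed between 2.01 and 2.30 and ARHGAP36 between -2.77 and -2.19 in the fits without 1 library, and for ATF1 1 such fit fell on the other side of 0.

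Markers of other cells moved with the groups to different degrees. The 6 microglial markers (AIF1, CSF1R, CX3CR1, ITGAM, P2RY12 and TREM2) had a median log2 fold change of 0.83, with 6 of 6 above 0. By edgeR 0 of them passed the threshold and 6 had an unadjusted p under 0.05, DESeq2 called 0, and their summed level was 183 to 311 CPM in control and 229 to 685 CPM in WD. The 4 paired markers of fibroblasts and pericytes summed to 134 to 186 CPM in control and to at most 133 CPM in WD (median 129). They did not move alike. The collagens COL1A1 and COL3A1 had log2 fold changes of -1.04 and -0.86, and of the 4 only COL1A1 passed the threshold. PDGFRA and PDGFRB were at -0.12 and 0.18. The paired endothelial markers (4 of 6) summed to 215 to 395 CPM in control and 224 to 481 CPM in WD. Their median log2 fold change was 0.40, with 3 of 4 above 0, and 0 passed the threshold. The astrocyte marker ALDH1L1 was 17.6 to 27.0 CPM in control and 25.5 to 42.2 CPM in WD. Its log2 fold change was 0.55 (SE 0.21, edgeR adjusted p = 0.390), and it was the astrocyte marker of 6 that had an ID. The general neurone marker NEFL was 190 to 274 CPM in control and 83.3 to 256 CPM in WD, with a log2 fold change of -0.63 (SE 0.24; edgeR adjusted p = 0.402), and it was the neurone marker of 6 that had an ID. Of 6 oligodendrocyte markers, OLIG2 and SOX10 had an ID, with log2 fold changes of -0.06 and -0.08. The ependyma markers FOXJ1 and RFX3 were at 0.25 and -0.14, and 0 of these genes passed the threshold. The part of these cell types in the differences of the 7 genes was not tested.

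The rest of the pathway was followed through 11 lists of genes, from the making of cAMP to genes with known CRE. Of 121 gene names on these lists, 85 were paired with an ID and 79 passed the filter, counting a gene on more than 1 list once. Of the 79, 6 rose in WD and 0 fell (edgeR, adjusted p of at most 0.05), which is 7.59% of those tested, where 0.499% of all genes tested were called. Of the 79, 8 (HCN4, CITED2, SCG2 and PTCH1 among them) have a symbol only through the name table ordered by p, which favours a low p, and 1 of the 8 (12.5%) passed, against 5 of the other 71 (7.04%). All 6 genes called are on the list of CRE genes, which holds several genes that the study itself picked on these samples. Neither the count of that list nor the pooled share is therefore independent evidence of a direction or of an excess over all genes. The median log2 fold change over the 79 genes was 0.04, against 0.02 over all genes. At an unadjusted p under 0.05 there were 22 of the 79, 14 higher and 8 lower, where 9.31% of all genes tested had such a p, and the unadjusted counts of the single lists are to be read against that share. DESeq2's Wald test called 9 of the listed genes, all higher, and 1.27% of the genes it tested.

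Upstream of PKA, 0 of the 11 tested cyclases and G protein subunits passed the threshold in edgeR, 2 had an unadjusted p under 0.05 (ADCY8 and ADCY10), and DESeq2 called 1 (ADCY8). ADCY8, a cyclase stimulated by calcium and calmodulin, was at 28.0 to 42.0 CPM in control and 49.5 to 65.2 CPM in WD with no overlap, and had the highest log2 fold change of its list (0.71, SE 0.18), with an edgeR adjusted p of 0.102. ADCY10, the soluble cyclase, had the lowest (-1.18, SE 0.47; edgeR adjusted p = 0.439). Of the 16 phosphodiesterases, which break down cyclic nucleotides, 0 passed in edgeR or DESeq2 and 3 had an unadjusted p under 0.05, and their log2 fold changes ran from -0.72 for PDE1B to 0.55 for PDE8B.

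The 4 regulatory subunits of PKA, which hold the catalytic subunits inactive, were all tested, and 0 passed in edgeR or DESeq2 and 1 had an unadjusted p under 0.05, with log2 fold changes from -0.58 for PRKAR1B to 0.12 for PRKAR1A. Of the anchoring proteins that place PKA in the cell, 4 of 12 were paired, 0 passed in edgeR or DESeq2 and 2 had an unadjusted p under 0.05, from -0.53 for AKAP12 to 0.81 for SPHKAP. The small PKA inhibitor proteins PKIA, PKIB and PKIG had no ID in the name tables, and their levels are not analysed here. Among cAMP sensors other than PKA, 0 of 3 tested genes passed in edgeR or DESeq2 and 1 had an unadjusted p under 0.05. This was HCN4, a pacemaker channel opened by cAMP, which was at 9.06 to 15.5 CPM in control and 4.17 to 9.02 CPM in WD (log2 fold change -0.94, SE 0.28; edgeR adjusted p = 0.205). RAPGEF4, an exchange factor, had the highest log2 fold change of that list (0.33).

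Of the other CREB and ATF factors, 0 of 6 passed in edgeR, while 1 had an unadjusted p under 0.05 and was called by DESeq2. This was ATF4, which had the highest log2 fold change (0.72, SE 0.20; edgeR adjusted p = 0.172) and ATF3 the lowest (-0.76, SE 0.58). Among kinases that act on CREB or on its CRTC coactivators, 1 of 12 passed and 3 had an unadjusted p under 0.05 (SIK1 and RPS6KA3 higher, CAMKK1 lower). The gene that passed was SIK1, a salt inducible kinase that is itself made in response to cAMP and phosphorylates CRTC. CAMKK1, a kinase above CAMK4, had the lowest log2 fold change of that list (-0.83, SE 0.26; edgeR adjusted p = 0.232).

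SIK1 was measured at 13.9, 10.2, 5.97, 9.66 and 14.3 CPM in CON2, CON3, CON4, CON5 and CON13. It was at 33.7, 16.8, 17.4, 26.4 and 31.5 CPM in WD6, WD7, WD8, WD9 and WD15. The groups did not overlap, although WD7 and WD8 were near the highest controls. SIK1 rose with a log2 fold change of 1.27 (SE 0.28; edgeR adjusted p = 0.0476). The call was near the threshold and held in 1 of 10 fits without 1 library, the adjusted p reaching 0.178 when CON3 was left out. It was also lost with library totals, with or without the 5 dominant IDs, and without both CON13 and WD6.

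The list of CRE genes holds several that the study picked on these samples, so nothing is read from its excess over all genes. Among genes with known CRE, 6 of 19 tested rose and 0 fell, against 0.499% of all genes called in either direction. Besides SIK1 these were FOS, an immediate early transcription factor (log2 fold change 1.48, edgeR adjusted p = 0.00313), the opioid precursor PDYN (1.93, adjusted p = 3.02e-04), the prohormone convertase PCSK1 (2.02, adjusted p = 2.49e-04), and the granin family genes VGF (3.99, adjusted p = 3.85e-05) and SCG2 (1.48, adjusted p = 0.0213). With library totals FOS and SCG2 missed the threshold, with adjusted p-values of 0.221 and 0.388. SCG2 also missed it in 4 of 10 fits without 1 library, and its adjusted p went up to 0.110 without CON3. NR4A2, an orphan nuclear receptor, had the lowest log2 fold change of the list (-0.82, SE 0.56). NR4A2 and the other 12 tested genes of the list, among them FOSB, JUNB, NR4A1 and EGR1, did not pass the threshold. At an unadjusted p under 0.05 there were 8 of the 19, of which 7 were higher and 1 was lower in WD, the lower one being EGR1 (log2 fold change -0.72, SE 0.28; edgeR adjusted p = 0.413).

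ARHGAP36 is also placed in Hedgehog signalling, and there 0 of 6 tested genes passed in edgeR or DESeq2 and 1, PTCH1, had an unadjusted p under 0.05. GLI1, a target and effector of the pathway, had the lowest log2 fold change (-0.86, SE 0.42; edgeR adjusted p = 0.564), and GPR161, a receptor known to act through cAMP and PKA in this pathway, the highest (0.55, SE 0.33). PTCH1, the Hedgehog receptor, was at 67.7 to 83.3 CPM in control and 44.8 to 66.4 CPM in WD without overlap (log2 fold change -0.41, SE 0.16; edgeR adjusted p = 0.418).

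**Figure D4:**
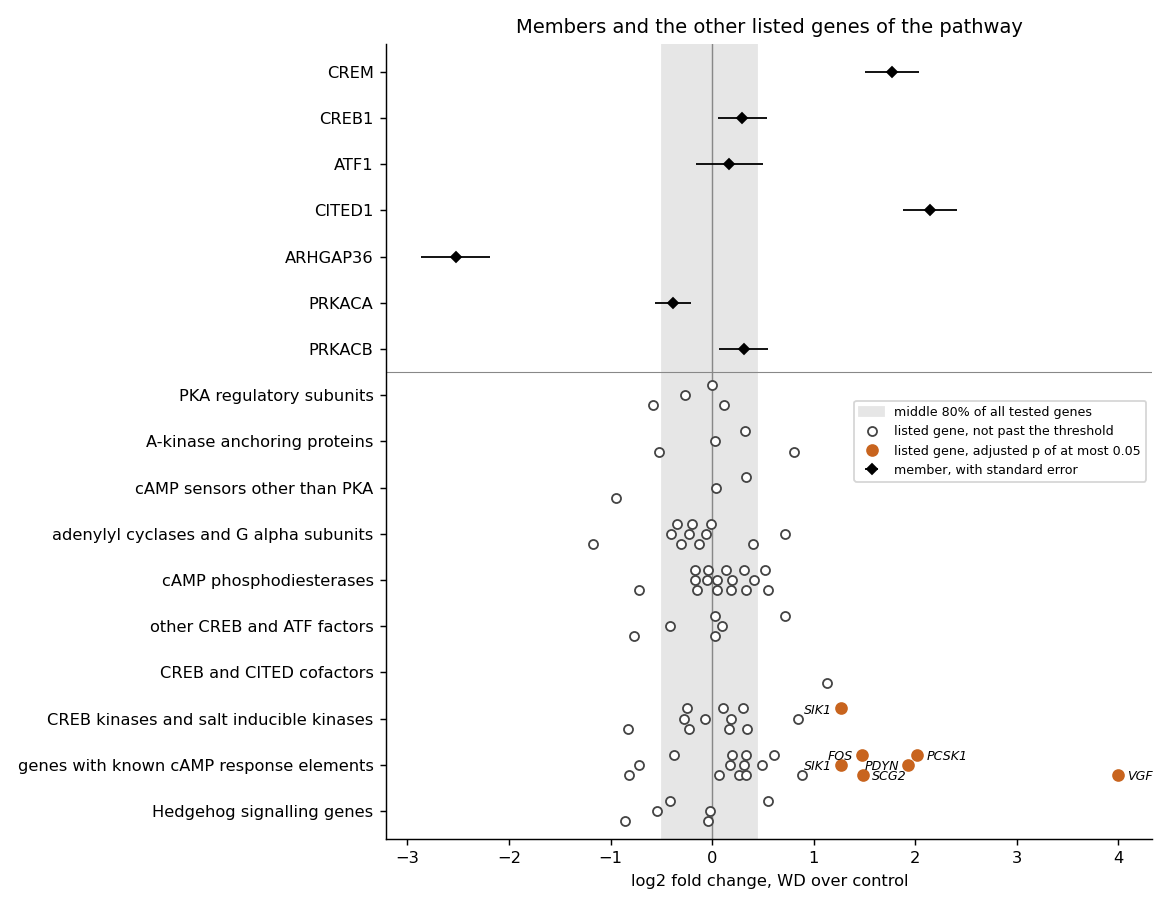
Log2 fold change of WD over control (horizontal axis, log2 units) for the 7 genes (diamonds with SE) and for the tested genes of each pathway list (circles, filled where the edgeR adjusted p was at most 0.05). The grey band, -0.49 to 0.44, holds the middle 80% of all tested genes; the filled circles are SIK1, shown in both of its lists, FOS, SCG2, PDYN, PCSK1 and VGF.

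To see which genes followed the same course over the 10 libraries, log2 CPM profiles were centred on their means and compared by the root mean square distance, where 0 is an identical course. Only genes with a symbol are named, and genes with a small p have one more often, because 1 of the name tables is ordered by p and shortened. Between 1 and 2 gene IDs without a symbol lay among the nearest of each gene. Nearest to CREM were ETV5 (distance 0.387), an ETS transcription factor, then SCG2 (0.528), RPS6KA3 (0.578), a kinase that can phosphorylate CREB1, FGL1 (0.586) and SLC16A4 (0.601), while the median distance over 14431 genes was 1.33. ETV5 and SCG2 passed the threshold for WD against control, and RPS6KA3, FGL1 and SLC16A4 did not. The log2 fold change of RPS6KA3 was 0.85, against 1.77 for CREM. CREM, SCG2 and RPS6KA3 were all lowest in CON13, at 1.20, 13.2 and 3.59 CPM, and the CREM value there rested on 1 read pair. How far CON13 sets these distances was not tested.

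Nearest to CITED1 were ZNF593 (0.388), PDYN (0.459), PTPRN (0.467), a protein of secretory granules, GP2 (0.504) and PCSK1 (0.549), against a median of 1.19. All 5 had positive log2 fold changes, from 1.36 for PTPRN to 2.02 for PCSK1. Nearest to ARHGAP36 were ASS1 (0.612), an enzyme of arginine synthesis, PCSK2 (0.617), the other main prohormone convertase, RTL9 (0.663), ADAMTS2 (0.664) and the neuropeptide gene NPB (0.701), against a median of 1.47. Their log2 fold changes ran from -2.06 for ADAMTS2 to -1.47 for ASS1.

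Among the 7 genes themselves, CREB1 and PRKACB had the most alike profiles (distance 0.294), followed by CREB1 and ATF1 (0.429). CREM was 1.02 from CREB1 and 1.05 from CITED1, and the widest distance was between CREM and ARHGAP36 (2.45). These distances share libraries, depth and the contrast by which the set was chosen, and they carry no test. The order of levels between genes is not given, because transcript lengths for the assembly of the counts were not used here.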

How the data were processed

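RNA of the SON was measured in 10 camels, whose groups (control or WD, 5 each) were taken from the sample titles. The authors aligned reads to Camdro2 with STAR and counted read pairs per gene with featureCounts, and deposited these raw counts without pooling. They also deposited normalized values (a signal per gene), each count divided by 1 DESeq2 size factor of its library, to within 5.38e-10. The annotation release and the strand setting of the counting are not given in the sources used here, so overlapping genes are uncertain.

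Everything was computed from the counts with R 4.3.3, edgeR 4.0.16 and DESeq2 1.42.0, and Python 3.11.15. Groups were compared by edgeR's robust quasi-likelihood F test after TMM normalization and filterByExpr, and p-values were adjusted by Benjamini-Hochberg over 14432 genes with a threshold of 0.05. The SE is the log2 fold change divided by the square root of F, in size. The biological coefficient of variation was 0.285. The script was tested on simulated counts. Nothing in the labels says more of the replicates than that they are separate camels.

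Symbols came from the name tables of the study, which pair 4351 of the 22444 IDs, 1191 of them only through a shortened table ordered by p (1819 entries), CITED1, ARHGAP36 and CITED2 among them. Names in rodent letter case were read as capitals. No coordinates are given. The members and all lists were chosen with earlier results of these data known. Named genes are the 7 members, the called, highest and lowest genes of each list, and the 5 nearest profiles with a symbol of CREM, CITED1 and ARHGAP36. PTCH1 and the CRE genes FOSB, JUNB, NR4A1 and EGR1 were named after their values were seen. Alternatives were DESeq2's Wald test, its size factors, library totals with and without the 5 dominant IDs, other filters, a fit that is not robust, depth group as a covariate and each library left out. Leaving out CON13 and WD6 together was chosen after seeing the data.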

Additional observations from a re-analysis of the deposited data

Results flagged for a closer look

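In the 26 groups of 5 libraries that were checked for a single library far from the rest, 2 had one, and chance flags about 1 group in 20. Both were control groups and both libraries were CON13, the least deep. For CREM, CON13 was the lowest control at 1.20 CPM (1 read pair), where the other controls were at 5.85 to 8.11 CPM, and its gap on the log2 scale was 0.826 of the range of the group, above the critical value of 0.71. For CITED1, CON13 was the highest control at 16.7 CPM (14 read pairs), where the others were at 6.20 to 8.04 CPM, and its gap was 0.738 of the range. The exact 95% Poisson interval of the CON13 value of CREM, 0.0303 to 6.66 CPM, reaches past CON3 and CON4 and ends below CON5 and CON2. That of CITED1, 9.15 to 28.1 CPM, lies above the other controls.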

How the results depend on the processing

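The number of genes past the threshold among all genes was 72, and it was 209 with DESeq2's Wald test, 224 with depth group as a covariate and 10 with library totals, a scaling that moved the median log2 fold change of all genes from 0.02 to 0.16. Without 1 library it ran from 40 (CON3 left out; 42 with CON5 left out) to 102 (WD6 left out). Of the listed pathway genes, 6 passed, against 3 with library totals (PCSK1, PDYN and VGF), 9 with DESeq2 or depth group as a covariate (ADCY8, ATF4 and CITED2 added), and 4 to 5 without 1 library. Without both CON13 and WD6 there were 6, with CAMKK1 lower and SIK1 not past the threshold. The cause of these shifts was not tested. The mean share of CREM in the trio was higher in WD by 28.7 percentage points, and by 24.9 to 32.4 without 1 library. None of the results reversed under the settings run, except that the uncalled log2 fold change of ATF1 changed sign once. No paired analysis was possible because control and WD camels share no replicate number. A share of CREM per transcript length was not run, as no lengths for the assembly of the counts were at hand. Depth limits CREM, CREB1 and ATF1 most in CON13, with 1, 4 and 3 read pairs.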
